A study of Gallus gallus with 4 samples.

Results

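The sites described here are the c-Myc peaks of proliferating chicken myoblasts, called from 1 c-Myc library against 1 IgG library. All rows of the authors' myoblast peak list were taken, except those whose detailed annotation named a simple repeat, a low-complexity stretch, a satellite or an rRNA, tRNA or snRNA. This left 19148 of 19354 listed peaks. The series holds 20415 peaks in its 2 lists, one for myoblasts and one for myotubes, and only the myoblast list is described.

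The cells were primary myoblasts from chicken embryo skeletal muscle, at passage 1, grown in RPMI-1640 with 15% fetal bovine serum. The c-Myc group was precipitated with a c-Myc antibody (abcam ab56), and the control group was chromatin of the same labelled cell type precipitated with IgG (bioss bs-0310P), an antibody with no intended target in chromatin. Neither group carried a genetic change or a treatment in the labels, and the labels give neither how many embryos were pooled nor their age. ChIP-seq (chromatin immunoprecipitation followed by sequencing) counts the DNA fragments an antibody brings down, and it measures no expression, so the labelled cell type could not be checked against muscle markers. Each of the 4 groups of the series held 1 library, so no difference has a replicate check, no p-value is given and every interval covers counting error only.

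c-Myc is a basic helix-loop-helix leucine zipper transcription factor that binds DNA as a dimer with MAX, preferring the E-box motif. In animal cells it is known for binding near the start sites of genes for ribosomes, RNA processing, metabolism and the cell cycle. MAX also pairs with the MXD proteins, MXI1 and MNT, which oppose c-Myc. In muscle precursors c-Myc is known to favour proliferation, and its level falls as the cells leave the cell cycle and fuse.

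The c-Myc library held 11.5 M mapped tags and the IgG library 16.1 M, so the control was 1.4 times as deep. A tag is the unit in which the authors' software counted aligned reads, and every value came in steps of 0.5. Each peak spans 200 bp, and together the peaks cover 3829.6 kb. They hold 2.52% of the c-Myc tags and 0.322% of the IgG tags. Over single peaks the c-Myc tags ran from 8 to 48.5, with quartiles of 13, 14.5 and 16.5. The IgG tags over the same peaks ran from 0 to 14.5, with quartiles of 1.5, 2.5 and 4. A typical peak thus rests on few tags: the exact Poisson interval of 14.5 tags runs from 8.02 to 24.1. If tags were spread evenly over the 999.9 Mb that the peaks span on their chromosomes, 200 bp would hold 2.29 c-Myc and 3.22 IgG tags. The mean peak held 6.59 times that level in the c-Myc library and 0.84 times that level in the IgG library.

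After scaling to 10 M tags per library (per 10M, the scale of all c-Myc to IgG ratios below), the median peak had 12.6 c-Myc and 1.55 IgG tags. Summed over all peaks, c-Myc exceeded IgG 7.84-fold (exact 95% interval 7.77 to 7.92). The peak caller chose the peaks by this same contrast, so that excess describes the selection and is not a finding. No peak had as few c-Myc as IgG tags per 10M, 10 peaks were under 2-fold and 942 (4.92%) were under 4-fold by the raw tags, although the lowest fold over IgG in the authors' own column was 4. At 1414 peaks, 7.38% of the list, the IgG library had no tag at all. At a peak with no IgG tag the fold is given against a floor of 3 tags in the IgG library (1.87 per 10M). The lower end of the exact interval of the ratio, which covers counting error in both libraries, is given beside it.

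Peaks gathered at transcription start sites (TSSs). Of the 19148 peaks, 1106 lay within 1 kb of the nearest annotated TSS, 5.78% of the list (exact interval 5.45 to 6.12). They are called promoter peaks here. In bins of 100 bp the count was highest just upstream of the TSS, with 171 peaks between −100 bp and the TSS. The next bins were the 128 peaks just downstream and the 127 peaks between −200 and −100 bp. Counts fell to 25 peaks between −1000 and −900 bp and to 18 peaks between 900 and 1000 bp. Of the promoter peaks, 639 (57.8%) were upstream, 466 were downstream and 1 was at the TSS. The median position was −57.5 bp, and 489 peaks (44.2%) were within 200 bp of the TSS.

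**Figure D1:**
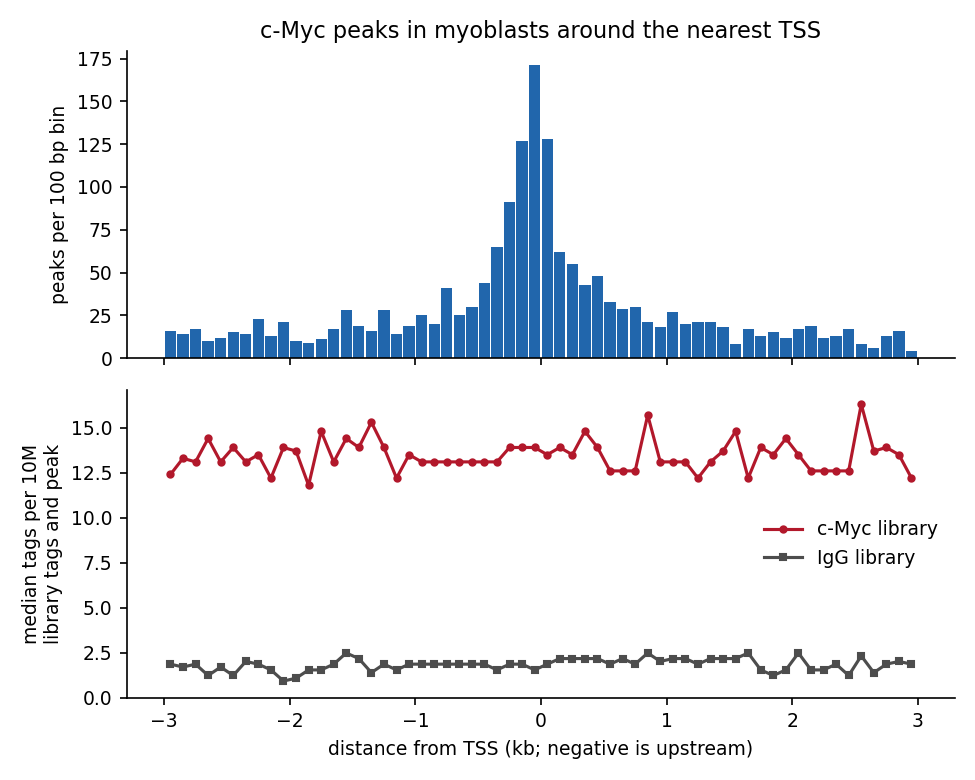
The upper panel counts peaks per 100 bp bin by distance in kb from the nearest TSS, with negative values upstream, and the lower panel gives the median tags per 10M per peak in the same bins for the c-Myc and IgG libraries. The count rises to 171 in the bin just upstream of the TSS, while the c-Myc median stays several times above the IgG median in every bin.

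Among the called peaks it was the number, more than the tags in each, that changed towards the TSS. The caller kept only peaks with enough c-Myc over IgG, so the tags per peak are limited by that choice. Promoter peaks had a median of 15.5 c-Myc tags and 3 IgG tags, and the 18042 other peaks had medians of 14.5 and 2.5. The ratio was 7.39 (7.13 to 7.67) in promoter peaks and 7.88 (7.8 to 7.95) in the others. Both libraries were slightly higher at promoters, IgG by the larger factor. Within the promoter the ratio was highest at the TSS itself. The 299 peaks within 0.1 kb had a ratio of 8.43 (7.83 to 9.08), with mean levels of 14.7 c-Myc and 1.74 IgG tags per 10M. Between 0.25 and 0.5 kb the ratio of 268 peaks was 6.78 (6.31 to 7.29), with means of 14.1 and 2.08. The 894 peaks more than 500 kb from any annotated TSS had the highest ratio of the distance bins, 8.89 (8.49 to 9.32), with the lowest mean levels in both libraries, 12.7 c-Myc and 1.42 IgG tags per 10M.

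The promoter peaks named 1063 genes, called targets here, of the 4749 genes named anywhere in the list, which is 22.4%. Of the targets, 1016 were protein-coding and 47 were non-coding. For 276 targets every assigned peak was a promoter peak, and 787 also had peaks farther away. c-Myc less IgG at the promoter peaks ran from 3.8 to 27.8 tags per 10M, with a median of 11.8. Among these called peaks the strongest promoters were therefore within a small multiple of the typical one.

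The strongest promoter signals stood at genes of varied roles, grouped below only for reading. UBE2A, a ubiquitin-conjugating enzyme that works with RAD18 at damaged replication forks, had the highest difference: 34 c-Myc and 3 IgG tags over a peak at −345 bp (galGal4 chromosome 4, 16513237 to 16513437, as the authors' list gives it). Its ratio was 15.9, with an interval of 5 to 80.8 that shows how little 3 IgG tags fix it. WDR1, which helps cofilin take actin filaments apart, had 32.5 and 6 tags at −88 bp (chromosome 4, 77886029 to 77886229), a ratio of 7.59 (3.14 to 22.2). The intervals of both ratios overlap, so their order is not resolved at this depth.

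Several of the other strongest promoters belong to genes of translation and RNA. RPS3A, which is part of the small subunit of the ribosome, had 30.5 c-Myc and 4 IgG tags at 175 bp. MTO1, an enzyme that modifies mitochondrial tRNAs, had 28.5 and 2 tags at −42 bp. FUBP1, named for its binding to the far upstream element of the MYC gene, had 28.5 and 2.5 tags at −116 bp. The splicing factor SRSF1 had 26.5 c-Myc tags and no IgG tag at −392 bp (chromosome 19, 8706327 to 8706527). That is 12.4-fold higher in c-Myc against the floor (exact interval from 9.38).

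Mitochondrial enzymes were a second kind. UQCR11, a subunit of respiratory complex III, had 29 c-Myc and 4.5 IgG tags at −62 bp. SUCLA2, a subunit of the citric acid cycle enzyme succinate-CoA ligase, had 26 and 0.5 tags at −81 bp. PDHA1, the catalytic subunit of pyruvate dehydrogenase, had 25.5 and 1 tags at 187 bp. In all of these the c-Myc level was at least 22.2 tags per 10M against a median of 13.5 over the list of targets. That gap follows from naming the strongest promoter peaks.

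DNA repair, protein turnover and signal response were also represented. POLD3, a subunit of DNA polymerase delta, had 25.5 c-Myc tags and no IgG tag at −185 bp, 11.9-fold higher against the floor (exact interval from 9). APTX, which repairs the ends of broken DNA strands, had 24.5 tags and no IgG tag at 34 bp, 11.4-fold higher against the floor (from 8.63). NSFL1C, a cofactor of the p97 ATPase, had 27 and 2.5 tags at −27 bp. The neddylation enzyme UBE2F had 26 and 2 tags, and the ubiquitin ligase HERC3 had 26.5 and 3.5. ZFYVE21, a lipid-binding FYVE domain protein, had 29.5 and 1.5. EGR1, an immediate early transcription factor, had 28 and 3 tags at −490 bp, and CTGF, a secreted matrix protein, had 28.5 and 4.5 at 850 bp. The homeobox gene HDX (25.5 and 2 tags) and the microRNA precursor MIR6548 (26 and 3 tags) were also among the 20 strongest.

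**Figure D2:**
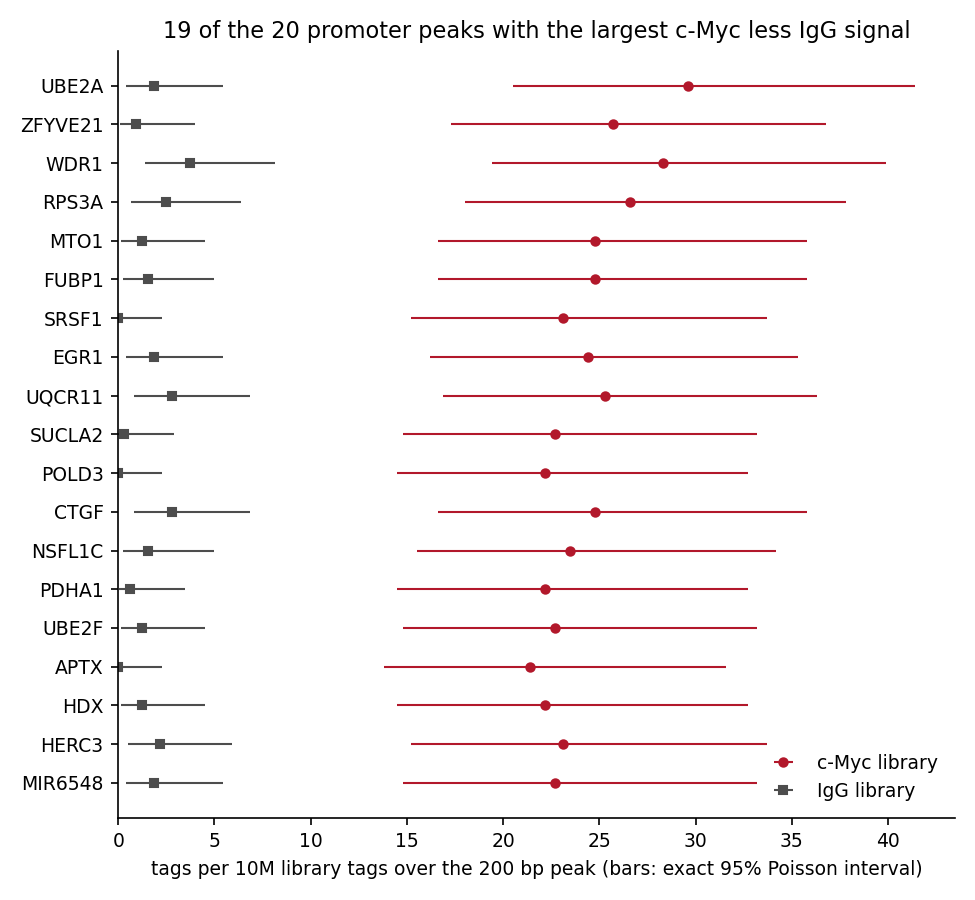
Points give tags per 10M library tags over the 200 bp peak for the c-Myc (circles) and IgG (squares) libraries at 19 of the 20 promoter peaks with the largest c-Myc less IgG difference; bars are exact 95% Poisson intervals. In every row the c-Myc interval lies above the IgG interval, at peaks that were chosen by this contrast, and the c-Myc intervals of neighbouring genes overlap, as for UBE2A (20.5 to 41.4) and MIR6548 (14.8 to 33.2).

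The 5 promoter peaks with the most IgG tags ran from 3.8 to 14.9 in c-Myc less IgG per 10M. CSDA, a cold shock domain protein, had 16 c-Myc and 12 IgG tags, a ratio of 1.87 (0.829 to 4.33). SAMM50, a subunit of the machinery that sorts proteins into the outer mitochondrial membrane, had 11.5 and 10 tags, a ratio of 1.61 (0.63 to 4.2) and the lowest difference of any promoter peak. ARIH2, an E3 ubiquitin ligase, had 14 and 9 tags, a ratio of 2.18 (0.879 to 5.71). The intervals of these 3 include equality, so an excess of c-Myc was not detectable at these promoters at this depth. STK24, a serine/threonine kinase, had 18 and 9 tags with a ratio of 2.8 (1.2 to 7.08), and PCDH19, a cell adhesion protein, had 23.5 and 9 tags with a ratio of 3.66 (1.64 to 8.97).

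Of the targets, 43 genes had 2 promoter peaks, and none had more. In no case did the pair overlap, and in 34 genes one peak lay upstream and the other downstream of its nearest annotated TSS. FUBP1 held 28.5 c-Myc and 2.5 IgG tags at −116 bp, and 19 and 3 tags at −587 bp. ATG7, an enzyme of autophagosome formation, held 28 and 6.5 tags at −85 bp, and 17.5 and 3 at 469 bp. HDAC2, a histone deacetylase, held 21 tags with no IgG tag at 594 bp, and 12.5 and 3 at −254 bp. In each of these pairs one peak had more c-Myc tags than the other, with Poisson intervals that overlap. ANKHD1 held 23 c-Myc tags with no IgG tag at −337 bp, and 13 and 2 at 227 bp. HSPA8, the constitutive cytosolic HSP70 chaperone, held 15.5 tags with no IgG tag at −479 bp, and 17 and 4.5 at 675 bp. In EIF2S2, a subunit of translation initiation factor 2, both peaks lay upstream, with 22 and 5.5 tags at −116 bp and 16 and 5 at −566 bp. Other pairs included NUP50 of the nuclear pore, CTNNB1 (beta-catenin), SKP1 of the SCF ubiquitin ligases and VCL (vinculin). The peaks of TXNL4B were 3780 bp apart, so they were measured from different start sites of that gene. TXNL4B is among the 34 by the signs of its distances, although its peaks do not flank the same TSS.

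Targets were then counted in 37 lists of genes with related roles, with 22.4% of all named genes as the background. That background includes the 495 microRNA precursors, of which 9.09% were targets, so the share of the other genes is higher. The side of a list or interval bound close to 22.4% depends on this. A gene enters the denominator only if it is the nearest gene to some peak. With every curated RefSeq gene as denominator the shares were lower, 13.4% for all genes, 50% for the circadian clock, 30.3% for splicing factors, 23.8% for aminoacyl-tRNA synthetases and 22.2% for histones. Only targets with a matching RefSeq symbol count there, 963 of 1063 overall and 5 of 7 aminoacyl-tRNA synthetases. Part of these 2 drops thus comes from fewer targets counted. These shares are descriptions without a test, and 23 lists lay above the background and 14 below. The exact interval lay wholly above the background in 9 lists and wholly below it in 2. The lists together held 438 targets, of which 8 are in more than 1 list. The lists differed in how many members had a promoter peak. Their called peaks differed little in strength, within the range that the caller's choice allows. The median c-Myc level of a list's targets ran from 12.2 to 16.1 tags per 10M, against 13.5 for all targets.

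The RNA processing lists and the RNA polymerase II and Mediator list had shares above the background, though the interval of the latter includes it. Among splicing factors 21 of 43 named genes were targets (48.8%, exact interval 33.3 to 64.5). Besides SRSF1 they included RBM25 (22.5 c-Myc and 3 IgG tags at −75 bp) and LSM8, whose peak at −5 bp had 18 tags and no IgG tag. RBM19 (23.5 and 5.5) is counted in the list by its symbol and not by a known role in splicing. Among RNA helicases and genes of RNA decay and export 13 of 28 were targets (46.4%, 27.5 to 66.1). EXOSC2, a subunit of the RNA exosome, had 18.5 and 0.5 tags at 7 bp. The helicase DHX30 had 20 and 3, the nuclear exonuclease XRN2 had 19.5 and 4, and CNOT1, the scaffold of the CCR4-NOT deadenylase, had 19 and 3.5. In the list of RNA polymerase II and Mediator genes 9 of 24 were targets (37.5%, 18.8 to 59.4). TAF12, a subunit of the general factor TFIID, had 25.5 and 3 tags, and the polymerase subunits POLR2H (19.5 and 4) and POLR2D (17 and 1.5) and the Mediator subunit MED17 (18.5 and 2.5) followed.

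The translation machinery varied by its parts. Aminoacyl-tRNA synthetases, which charge tRNAs, had 7 targets of 13 (53.8%, 25.1 to 80.8), led by EPRS with 19.5 c-Myc and 2 IgG tags at 10 bp and DARS with 19 and 5 at −26 bp. The mitochondrial synthetases EARS2 (16 and 2.5 tags) and PARS2 (15 and 4) were also targets. Ribosomal protein genes had 16 of 40 (40%, 24.9 to 56.7). After RPS3A came RPL19 with 19.5 tags and RPL7 with 17 tags, both with no IgG tag, and RPS24 with 20 and 2. Translation factors, with 6 of 21 (28.6%, 11.3 to 52.2), included EIF4H (25 and 7), EIF2S2 and EIF4G2 (19.5 and 3). Ribosome biogenesis genes had 3 of 11 (27.3%, 6.02 to 61): NCL (nucleolin) with 18 and 4.5, LSG1 with 16.5 and 2 and NIP7 with 12 and 0.5. Mitochondrial ribosome and import genes had 5 of 29 (17.2%, 5.85 to 35.8), with MRPL44 at 19.5 and 1.5 tags. The cytosolic and mitochondrial ribosomal lists have overlapping intervals, and their difference was not tested.

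In the cell cycle list 17 of 43 genes were targets (39.5%, 25 to 55.6). CDC2L1, a cyclin-dependent kinase gene, and CCNB3, a B-type cyclin, each had 19.5 c-Myc and 2 IgG tags, at −389 and 355 bp. E2F4, an E2F family transcription factor, had 19 and 2 at −37 bp, and CENPQ, a centromere protein, had 18.5 and 3. DNA replication and repair stood nearer to the background, with 13 of 50 (26%, 14.6 to 40.3). Besides POLD3 the list included MRE11A, a nuclease of double-strand break repair, with 25 and 4 tags, the damage sensor XPA with 20 and 3, and RAD18, the ubiquitin ligase that partners UBE2A, with 19 and 2. In the list of apoptosis and p53 genes 7 of 22 were targets (31.8%, 13.9 to 54.9), among them the caspase-8 inhibitor gene CFLAR (18.5 and 1) and XIAP (16 and 1). The median c-Myc level of the targets was 13.9 tags per 10M in the cell cycle list, 13.1 in the replication and repair list and 14.8 in the apoptosis and p53 list.

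Histone genes had 6 targets of 10 named (60%, 26.2 to 87.8). H3F3B, which encodes the replacement histone H3.3, had 20.5 c-Myc and 3 IgG tags at −409 bp. The H2A.Z gene H2AFZ had 14.5 tags and no IgG tag at −199 bp. HIST1H2B7 had 16 and 1 tags, HIST1H46 18 and 6, the macroH2A gene H2AFY2 16 and 4, and H3F3C 14.5 and 5. Of the others, HIST1H111R had its peak at 1783 bp, HIST1H2A4 at −2217 bp, H2AFY at 4130 bp and HIST1H110 at −13052 bp. Clustered histone genes are near-identical, so reads may be split between copies. Chromatin regulators had 15 targets of 51 (29.4%, 17.5 to 43.8). Besides HDAC2 they included ARID4A (19.5 and 1 tags), SSRP1 of the histone chaperone FACT (21 and 4.5) and the methyltransferase SETD3 (19 and 2). SETD3 is counted in the list by its symbol and not by a role in chromatin shown here.

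Membrane traffic held the most targets of any protein-coding list, 38 of 94 genes (40.4%, 30.4 to 51). AP1G1, a clathrin adaptor subunit, had 24.5 c-Myc and 4 IgG tags at −925 bp, and the SNARE protein VAMP3 had 22 and 2 at −425 bp. RAB1A, a GTPase of transport from the endoplasmic reticulum, had 20.5 tags and no IgG tag. EXOC2 of the exocyst had 22 and 3. Autophagy and lysosome genes had 12 of 30 (40%, 22.7 to 59.4) and, with the myogenic regulators, the highest median c-Myc level of the lists, 16.1 tags per 10M. The median IgG of the autophagy and lysosome targets, 4.5 tags, was also the highest of the lists, together with the circadian clock. Besides ZFYVE21 and ATG7 the list included the proton pump subunit ATP6V1E1 (19 and 2) and cathepsin K, CTSK (20 and 4). Proteasome and chaperone genes had 16 of 50 (32%, 19.5 to 46.7), with DNAJC3 (22.5 and 3), HSPA4L (20 and 0.5) and BAG5 (20.5 and 3) after NSFL1C. Ubiquitin enzymes, although they include the strongest promoter peak, had 21 of 91 (23.1%, 14.9 to 33.1), near the background. The lists were built from symbol patterns and are not complete: ARIH2 and the repair gene APTX, for example, are in none of them. MDM2, the ubiquitin ligase of p53, had 18 and 0.5 tags at −618 bp.

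The metabolic lists ranged from above to below the background. Respiratory chain genes had 12 targets of 31 (38.7%, 21.8 to 57.8), with NDUFA5 of complex I at 17 c-Myc tags and no IgG tag, SDHA of complex II at 20 and 6, and COX4I1 of complex IV at 19.5 and 5.5. Glucose and serine metabolism had 8 of 28 (28.6%, 13.2 to 48.7). LDHA, the lactate dehydrogenase gene that is a textbook c-Myc target in mammalian cells, had 18.5 and 3 tags at −122 bp, IDH3A had 18 and 3, and MDH1 had 14 and 1.5. Nucleotide and polyamine synthesis had 5 of 23 (21.7%, 7.46 to 43.7). AMD1, an enzyme of spermidine synthesis, had 24.5 and 3 tags at −96 bp, and AZIN1, an activator of ornithine decarboxylase, had 13 and 1. Solute carriers had 9 of 67 (13.4%, 6.33 to 24), led by SLC25A14 (20.5 and 2) and SLC17A5 (22 and 4.5).

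**Figure D3:**
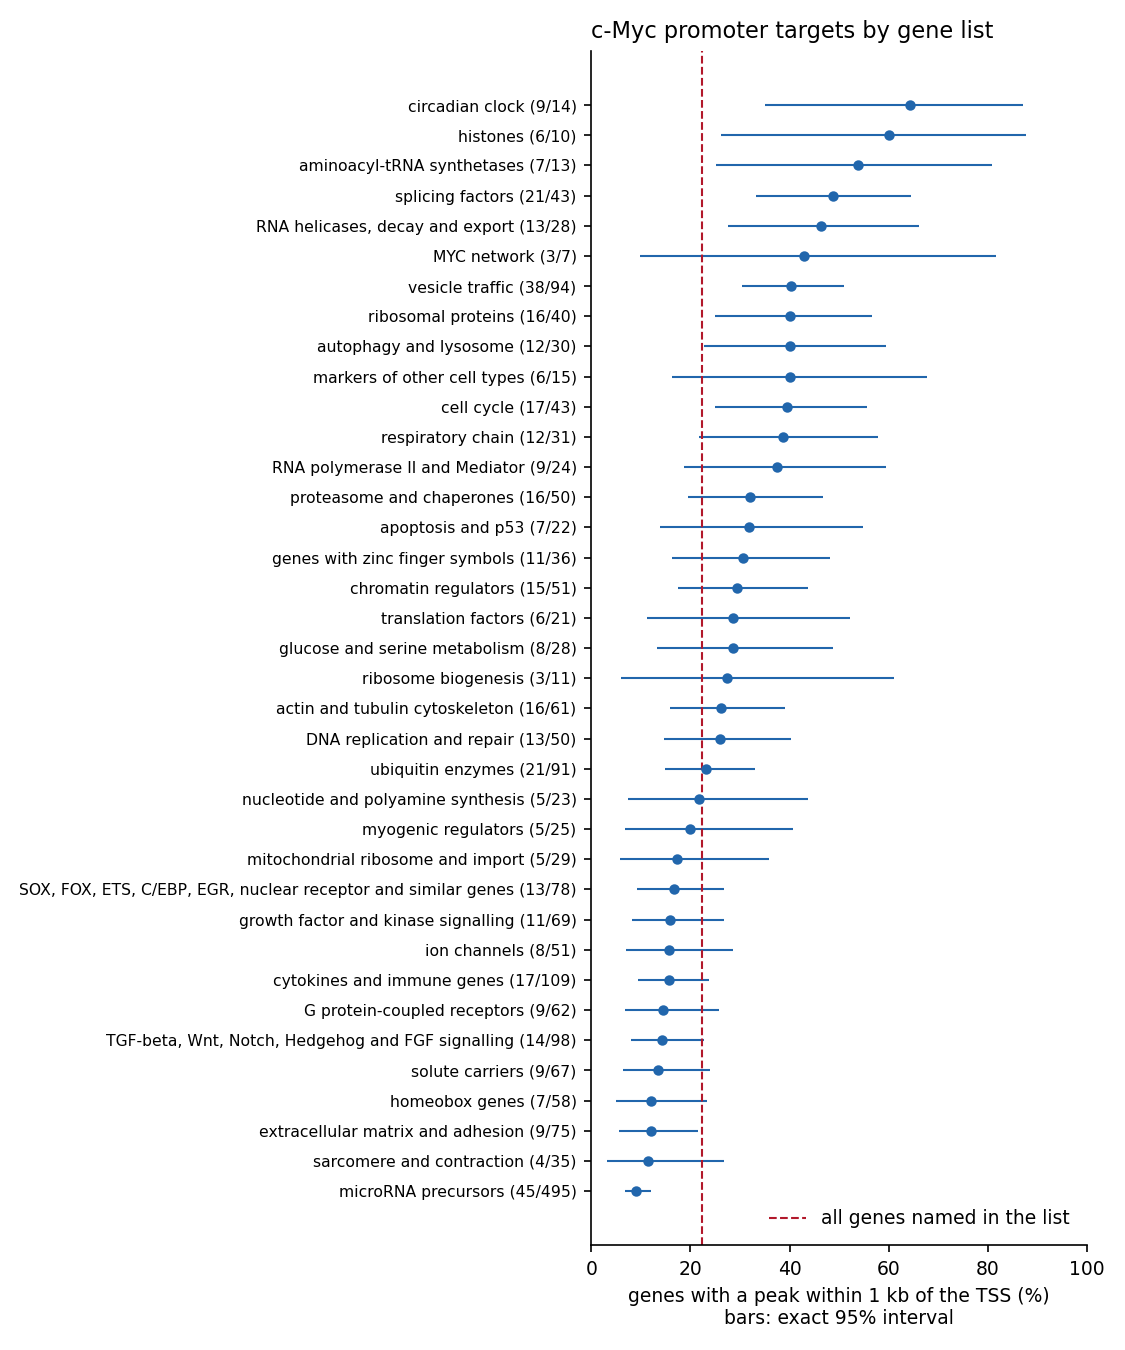
Points give the percentage of each list's named genes with a peak within 1 kb of the TSS, bars are exact 95% intervals, the numbers in brackets are targets over named genes, and the dashed line is the 22.4% of all named genes. Circadian clock, histone, tRNA synthetase and splicing lists stand at the top with 64.3% to 48.8%, and microRNA precursors stand at the bottom with 9.09%.

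The circadian clock list had the highest share, 9 targets of 14 (64.3%, 35.1 to 87.2), although it is short. The clock uses E-boxes, the kind of motif that c-Myc also prefers. No sequence was searched here, so any link to this share was not tested. CRY1, a repressor of the clock, had 24 c-Myc and 5 IgG tags at −221 bp. The nuclear receptor RORA had 21.5 and 4.5 at −126 bp, and the PAR bZIP factor TEF had 17.5 and 2. TIPIN, which binds the Timeless protein, had 19.5 and 4, and is counted in the list by its symbol and not by a clock role shown here. These 4 genes were named for the largest c-Myc less IgG of the list, and had at least 15.3 c-Myc tags per 10M. Over all 9 clock targets the level ran from 10.5 to 20.9, with a median of 15.3 against 13.5 for all targets. The clock targets had a median of 4.5 IgG tags per peak, above the 3 of all promoter peaks, so the medians of both libraries were higher there.

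Genes of the MYC network itself had 3 targets of 7 named (42.9%, 9.9 to 81.6), and with a window of 500 bp the share was 14.3% against 17.1% of all genes. MXD4 had 16 c-Myc and 4 IgG tags at −398 bp, MXD1 had 15.5 and 3.5 at −877 bp, and MYCN had 13.5 and 3 at 741 bp. MXD1 and MXD4 encode partners of MAX that oppose c-Myc. The closest peak of MXI1 was 4.36 kb from the TSS, that of MLX 28.5 kb, that of ZBTB17 (MIZ1) 35.6 kb and that of MYC 63.5 kb. MYC was nevertheless the nearest gene to 31 peaks.

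Among muscle genes, myogenic regulators had 5 targets of 25 (20%, 6.83 to 40.7). Their share lay above that of all genes in the upper 50% of peaks (25% against 16.9%) and with RefSeq genes as denominator (15.2% against 13.4%). TEAD1, a partner of YAP that binds muscle gene elements, had 21 c-Myc and 3 IgG tags at −151 bp. ID3, which blocks myogenic helix-loop-helix factors, had 18.5 and 2 at −3 bp, EYA2, a transcriptional coactivator, had 18.5 and 3.5, and MEF2A had 17.5 and 5 at 792 bp. The master regulators had only distant peaks: the closest lay 12.5 kb from MYF6, 19.0 kb from MYF5 and 82.6 kb from MYOD1. Those of the precursor cell factors PAX7 and PAX3 lay at 21.1 and 40.7 kb, and that of MEF2D lay at 20.7 kb. MYOG, MEF2C and DES were the nearest gene to no peak, as any gene without an annotated start site would also be. Sarcomere and contraction genes had 4 targets of 35 (11.4%, 3.2 to 26.7): TNNC1 (16 and 2 tags), MYH1E (16 and 3), TMOD3 (16.5 and 4) and CASQ2 (14.5 and 3.5). MYH1E belongs to a cluster of near-identical skeletal myosin genes, so its tags may be shared with neighbours. Actin and tubulin cytoskeleton genes had 16 of 61 (26.2%, 15.8 to 39.1), including TUBB6 (19 and 3) and RHOB (18 and 3.5).

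Signalling and cell surface lists had shares below the background, but only the interval of the matrix and adhesion list excluded its 22.4%. The upper bounds of the TGF-beta and cytokine lists, 22.8% and 23.8%, lay close to it. Whether these 2 intervals exclude the background thus depends on the microRNA precursors that it includes. TGF-beta, Wnt, Notch, Hedgehog and FGF genes had 14 targets of 98 (14.3%, 8.04 to 22.8). SUFU, an inhibitor of Hedgehog signalling, had 23.5 c-Myc and 4.5 IgG tags, the ligand BMP4 had 21.5 and 2, the receptor NOTCH2 had 21.5 and 6, and the inhibitory SMAD6 had 18.5 and 2. Growth factor and kinase genes had 11 of 69 (15.9%, 8.24 to 26.7), led by AKT1 with 26.5 and 6 at 707 bp. Extracellular matrix and adhesion genes had 9 of 75 (12%, 5.64 to 21.6), ion channels 8 of 51 (15.7%, 7.02 to 28.6), G protein-coupled receptors 9 of 62 (14.5%, 6.86 to 25.8) and cytokine and immune genes 17 of 109 (15.6%, 9.36 to 23.8). Levels at the targets varied: TRPC1, a cation channel, had 22.5 and 4 tags, CD47, the surface signal that restrains phagocytes, had 18 and 0.5, and the targets of the matrix and adhesion list had the lowest median c-Myc level of the lists, 12.2 tags per 10M. At 5 kb the matrix and the cytokine and immune lists moved above the share of all genes (41.3% and 44% against 41.1%).

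Genes with a zinc finger symbol, which include transcription factors and the ZDHHC palmitoyltransferases, had 11 targets of 36 (30.6%, 16.3 to 48.1), with ZBTB48 at 24 c-Myc and 3.5 IgG tags. A list of transcription factor families (SOX, FOX, KLF, TBX, GATA, RUNX, ETS, C/EBP, EGR, AP-1, nuclear receptors and similar) had 13 of 78 (16.7%, 9.18 to 26.8), with EGR1, RORA and ETS2 (20 and 4) in front. Homeobox genes had 7 of 58 (12.1%, 4.99 to 23.3), including IRX2 (17.5 and 1) and SIX2 (16 and 1). MicroRNA precursors had 45 of 495 (9.09%, 6.71 to 12), led by MIR6548, MIR1721 (26 and 4) and MIR1587 (22 and 4.5). For microRNAs the annotated start is that of the precursor, which can lie far from the promoter of the primary transcript. Markers of other cell types had 6 of 15 (40%, 16.3 to 67.7), each with at most 14.8 c-Myc tags per 10M. They were CEBPB (17 and 3 tags), COL3A1 (15.5 and 2.5 tags at −21 bp), the blood factor TAL1 (13.5 tags and no IgG tag), the embryonic globin HBZ (15.5 and 3.5), LEPR (14 and 3) and PPARG (11.5 and 2). The closest peaks of COL1A2, NEUROD1, SOX2 and PDGFRA lay 4.3, 9.2, 10.9 and 11.2 kb from the TSS. Binding at these genes is not a measure of their expression. COL1A1, PECAM1 and TUBB3 were the nearest gene to no peak, with the same limit as for MYOG.

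Most peaks lay away from annotated start sites. A start site missing from the annotation would make its promoter peak look distal here. By the authors' annotation 14739 peaks (77%) were intergenic, 2610 (13.6%) in introns, 1449 (7.57%) in the promoter class, 132 at transcription termination sites, 131 in exons, 86 in 3′ UTRs and 1 in a 5′ UTR. The promoter class proved to be every peak within 2 kb, from −1989 to 1997 bp, so 343 of its members lay beyond the 1 kb used here. Of the intron peaks, 615 were in the first intron of a transcript and 1995 in later introns, with ratios of 7.71 (7.32 to 8.13) and 7.87 (7.64 to 8.1). The plain label CpG, for a CpG island, was carried by 1094 peaks outside promoters (5.71%). Numbered CpG labels, such as that of the HIST1H2A4 peak, were not counted with them. The 1094 peaks had a median of 16 c-Myc and 3 IgG tags and a ratio of 7.21 (6.96 to 7.48), and 4.2% of them had no IgG tag. Their levels were thus close to those of promoter peaks. In peaks at 3′ UTRs the ratio was 9.06 (7.84 to 10.5) and the lower bound of its interval equals the value for all peaks after rounding.

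**Figure D4:**
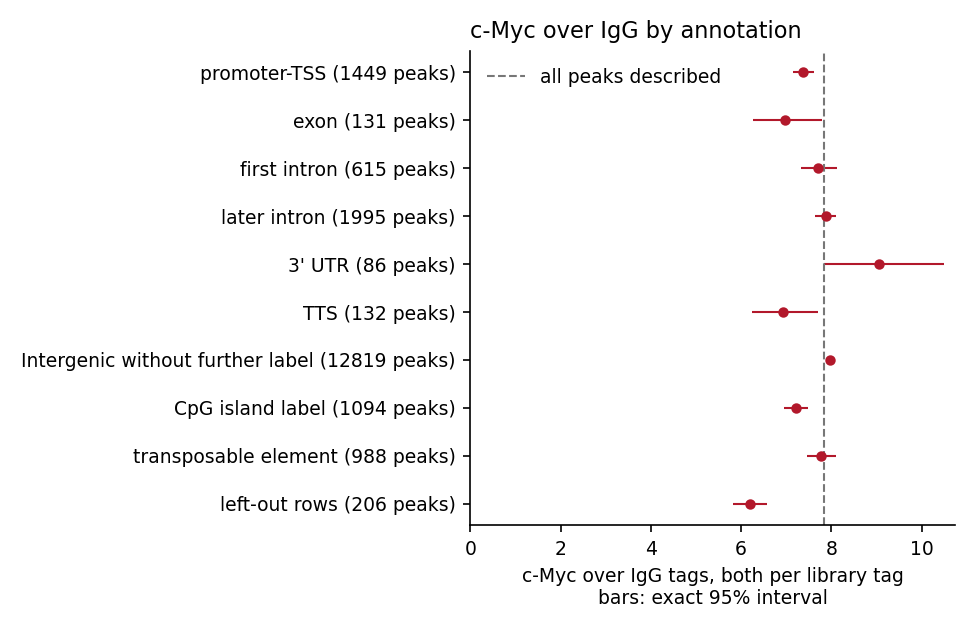
Points give the c-Myc to IgG ratio of summed tags, both scaled by library total, in each annotation class, bars are exact 95% intervals and the dashed line is the ratio over all peaks described. Promoter peaks and peaks with the plain CpG label lie at 7.38 and 7.21, left of the line, and intergenic peaks without a further label lie at 7.98.

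Transposable elements labelled 988 peaks (5.16%), with a ratio of 7.77 (7.46 to 8.11). CR1 LINEs, the main interspersed repeats of birds, accounted for 752 of them, at a ratio of 7.74 (7.38 to 8.13). ERVL elements accounted for 99, hAT-Charlie DNA transposons for 68 and Mariner elements for 40. The ratio of each family's peaks had an interval that includes the value of all peaks. Reads of repeated copies can align to more than one place, and how the authors treated them is not given in the sources used here.

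The strongest peaks of the list were not within 1 kb of an annotated TSS. A CpG island 16.3 kb from the TSS of CHST6 (chromosome 11, 19379683 to 19379883) had 48.5 c-Myc and 9 IgG tags, a ratio of 7.55 (3.67 to 17.5). A CpG island 34.9 kb from DNMT3A, the de novo DNA methyltransferase (chromosome 3, 104217685 to 104217885), had 44.5 and 5 tags, a ratio of 12.5 (4.96 to 40.3). An intergenic site 15.2 kb from EHD3, a protein of endosomal recycling, had 43 and 9 tags. Both libraries were high at CHST6 and EHD3. IgG was absent at the next kind of site. A peak in intron 3 of PLXNB1, a semaphorin receptor, had 30 c-Myc tags and no IgG tag, 14-fold higher against the floor (exact interval from 10.7). A CpG island 9.65 kb from the metalloprotease ADAM9 had 29.5 and none, 13.8-fold higher against the floor (from 10.5). The rest of the 10 strongest outside promoters were assigned to CCDC101 (36 and 3 tags), GBP (40 and 9.5), UCHL3 (33 and 6), C3H6ORF120 (31.5 and 3.5) and LYPLAL1 (30 and 1, at 127 kb). The CpG label was carried by CHST6, DNMT3A, GBP, ADAM9, C3H6ORF120 and UCHL3. An assignment names the nearest annotated TSS and does not show that the site acts on that gene.

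A few genes collected many peaks. Genes had a median of 3 assigned peaks, 1263 genes had 1, and the maximum was 41. HSPA13, an HSP70 family member, had these 41, spread over 2045.6 kb of chromosome 1, with 1 promoter peak at −100 bp (19 c-Myc and 1 IgG tags). TIAM2, an exchange factor for RAC, had 38 over 1056.9 kb, none at the promoter. The 31 peaks of MYC spread over 1390.0 kb of chromosome 2, with 10 upstream and 21 downstream of its TSS and the farthest 934 kb away. Median levels over the peaks of these genes were ordinary, with 15 c-Myc tags at HSPA13, 14.25 at TIAM2 and 13.5 at MYC. PCDH10 and ZC3H14 had 30 each, STK17B 29, SPRY2, TDRD3 and DIAPH1 28 each, and MIR1806 27. Of these 10 genes HSPA13 and SPRY2, an inhibitor of receptor kinase signalling whose promoter peak lay at 81 bp, were targets. Each of the 10 sets of peaks spanned at least 1000.3 kb, so a long stretch with no other annotated start was part of the count.

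Peak density followed the chicken chromosome classes. The 5 macrochromosomes held 11102 peaks, 18.4 per Mb, of which 4.87% (4.48 to 5.29) were promoter peaks. Chromosomes 6 to 10 held 3258, 22.8 per Mb, with 5.65% (4.88 to 6.5) at promoters. The 18 microchromosomes with peaks, known to be gene-dense, held 4246, 24.8 per Mb, with 8.17% (7.37 to 9.04) at promoters. Promoter peaks per Mb rose across the classes from 0.895 to 1.29 and 2.03, while the c-Myc to IgG ratio went from 8 (7.9 to 8.1) to 7.72 (7.54 to 7.89) and 7.4 (7.26 to 7.54). Chromosome Z stood apart with 542 peaks, 6.63 per Mb, a ratio of 9.75 (9.16 to 10.4) and no IgG tag at 13.8% of its peaks. Over its called peaks the mean levels were 12.9 c-Myc and 1.32 IgG tags per 10M. The c-Myc level was thus close to that of the macrochromosomes, at 13, and the IgG level was below theirs, at 1.63. Sites that failed the caller's choice by c-Myc against IgG do not enter these means. The labels do not give the sex of the embryos.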

How the data were processed

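The authors deposited 1 annotated peak list per cell state. The submitters' processing notes name CASAVA 1.8.2, Trimmomatic 0.30, FastQC 0.10.1, Bowtie2 2.1.0, HOMER 4.6 and the build galGal4, without roles or options, and the sources used here do not give the options for calling peaks. Values of tags per peak are a signal that is never negative, counted without adjustment in each library, per the file headers. The authors also deposited ratios, the fold of c-Myc over IgG and over the local background of each peak.

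From these, raw tags were scaled to 10 M per library with the library totals in the headers. Shares have exact Clopper-Pearson intervals, tags exact Poisson intervals and tag ratios exact conditional binomial intervals, all at 95% (Python 3.11.15, numpy 2.4.6, pandas 2.3.3, scipy 1.17.1, matplotlib 3.10.9). The intervals of shares were checked for coverage on simulated data, and that of the tag ratio on a single simulated set. The Poisson intervals were not checked this way. Sequencing duplicates are not independent molecules.

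Promoter peaks lie within 1000 bp of a TSS. Of 4751 gene identifiers, 4711 (99.2%) matched the RefSeq table of assembly GRCg7b. It was used for names and, matched by symbol, for the shares with RefSeq genes as denominator, and not for positions. In 31 rows, belonging to 8 genes, a spreadsheet had turned the symbol into a date, and the name was taken by identifier. Genes named are the 20 strongest promoter peaks, genes with 2 promoter peaks, up to 4 targets per list (all named genes in lists of at most 10), the 10 strongest other peaks, the 5 promoter peaks with the most IgG and the 10 genes with the most peaks. Of the 20 strongest promoter peaks 1 is not reported here. Muscle and other cell type genes fixed for a check of the label are also given, with MYH1E as the only MYH gene named. A few pairs of promoter peaks beyond the 20 that the rule names (CTNNB1, SKP1, VCL, TXNL4B) were chosen after their values were seen. Members and lists were chosen with earlier results of these data known. No genome sequence was used here, so the planned E-box search was not run and no sequence is printed.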

Additional observations from a re-analysis of the deposited data

Results flagged for a closer look

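The 206 rows left out of the list for their repeat or structural RNA annotation hold signal that no comparison above uses. They comprise 133 simple repeats, 61 low-complexity stretches, 7 tRNA, 3 rRNA and 1 snRNA rows and 1 satellite. Their c-Myc to IgG ratio was 6.19 (exact 95% interval 5.83 to 6.57), below the 7.84 of the peaks described, with medians of 17.0 c-Myc and 3.5 IgG tags and maxima of 343.5 and 81.5. Both libraries were thus higher there than over the peaks described.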

How the results depend on the processing

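The TSS window and the strength of the peaks moved the counts. A window of 5 kb gave 2242 promoter peaks, 1952 target genes and 840 targets in the lists. One of 500 bp gave 834, 814 and 336. The upper 50% of peaks by c-Myc less IgG gave 663 promoter peaks, 641 target genes, 262 targets in the lists, a c-Myc to IgG ratio of 9.89 and 11.2% of peaks without an IgG tag; fewer peaks, chosen by that contrast, enter by construction. With IgG as scaled by the caller the ratio was 7.96. Keeping all rows or only chromosomes could change no count of promoter peaks or targets. None of the left-out rows was a promoter peak, and every peak already lay on a placed chromosome. Of the 37 lists, 32 kept their side of the share of all genes at 500 bp (17.1%), at 5 kb (41.1%) and in the upper 50% of peaks (16.9%). At 500 bp the MYC network, DNA replication and repair and chromatin regulators fell below it, and mitochondrial ribosome and import and nucleotide and polyamine synthesis lay above it. At 5 kb the latter pair, extracellular matrix and cytokine lists lay above and the cytoskeleton below. In the upper 50% of peaks mitochondrial ribosome and import and myogenic regulators lay above, and glucose and serine metabolism, ubiquitin enzymes and the cytoskeleton below. With all 7184 curated RefSeq genes as denominator, of which 963 (13.4%) were targets, 35 lists kept their side, and nucleotide and polyamine synthesis and myogenic regulators moved above it. No paired analysis was possible because each group held 1 library, and for the same reason no replicate could be left out. The E-box alternatives were not run. Depth limits single promoters most: few IgG tags leave wide ratios, and differences between neighbouring genes in strength were not detectable.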
